A study of Mus musculus with 9 samples.

Results

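Liver carrying NFE2L2 G31A together with CTNNB1 T41A, the group labelled MODEL1, was compared with control liver, labelled CTRL, across all genes of a deposited table of read counts. The libraries were chosen by their labels alone: 3 MODEL1 and 3 CTRL libraries, 6 of the 9 in the series. The other 3, labelled MODEL2, carry NFE2L2 T80K with CTNNB1 T41A and are used here only to share the estimate of the spread and to test where MODEL1 differed from the other model.

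All 9 libraries are RNA from liver of male FVB mice on a normal diet. MODEL1 mice were 18 weeks old. They had received plasmids for NFE2L2 G31A and CTNNB1 T41A with a Sleeping Beauty transposase, which inserts the plasmid cargo into the genome, in saline by hydrodynamic tail vein injection, a method that pushes plasmid into hepatocytes. Per the series' text, mice were injected at 6 to 8 weeks of age and both models developed liver tumours, those with G31A sooner. CTRL mice were 13, 13 and 17 weeks old (replicates 1, 2 and 3). Neither the labels nor the series' text ties the sequenced CTRL mice to a treatment: the text describes a control with wild-type NFE2L2 and T41A beta-catenin examined 14 weeks after injection, and no label says whether the sequenced mice were injected. Age and model therefore differ together between the groups. The labels do not say whether a library is whole liver, tumour or a mixture, and the promoter that drives the transgenes is not given in the sources used here.

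NFE2L2 (NRF2) is a transcription factor that switches on genes of glutathione and thioredoxin metabolism, detoxification, drug efflux and iron storage through the antioxidant response element. In unstressed cells the adaptor KEAP1 binds its Neh2 domain and hands it to the CUL3 ubiquitin ligase, and changes in the KEAP1-binding motifs, frequent in liver cancer, let it accumulate. CTNNB1 (beta-catenin) is the effector of Wnt signalling. Loss of the phosphorylation sites that include threonine T41 stabilises it, and in liver it drives the genes of hepatocytes around the central vein while genes of the portal side are held down.

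Library totals ran from 219504 to 325177 counts. A count of 0 in a library therefore leaves room for a level of up to 9.43 to 14.6 CPM (counts brought to a common effective library size), the worth of 3 counts in the 6 libraries. Of 24419 symbols, 2639 had enough counts to be tested. Log2 CPM correlated across these genes, which are not independent replicates, at r = 0.855 to 0.899 within the groups and 0.6 to 0.673 between them. Rn45s, the ribosomal RNA precursor, held 2.43% to 10.3% of counts in CTRL and 2.68% to 13.4% in MODEL1, and the 3 libraries over 8% were CTRL replicate 1 and MODEL1 replicates 1 and 3. Hepatocyte markers were present in every library but low: 19 markers, albumin (Alb) among them, held 0.346% to 0.451% of counts in CTRL and 0.163% to 0.337% in MODEL1. Between 64.7% and 76.7% of the counts of these 6 libraries lay in symbols with an exon that overlaps an exon on the opposite strand, although such symbols are 24.2% of the 24010 placed on the genome. Whether the kit marks strand, and how reads were assigned, is not given in the labels, so reads of such pairs cannot be given to one gene, and the opposite-strand partner of each gene below is named where it has one. Low counts were not confined to such pairs, as 13 of the 15 hepatocyte markers tested have no opposite-strand exon. How the assignment of reads bears on counts of genes without a partner, those at 0 included, was not tested.

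Of the 2639 genes, 602 differed between MODEL1 and CTRL (22.8%; edgeR's quasi-likelihood test, adjusted p under 0.05), 313 higher (11.9%) and 289 lower (11%). At least 2-fold changes made up 269 of the rises and 230 of the falls, and at least 8-fold changes 90 and 40. No library overlapped between the groups, with MODEL1 above CTRL, in 489 of the tested genes (18.5%), and with MODEL1 below CTRL in 458 (17.4%), and 28 of the 602 called genes had overlapping libraries. Calls depended on level: when genes were ranked by level in 3 equal bins, 14.3% of the lowest bin were called, with a median SE of 0.58 log2 units, against 34.5% of the highest, with a median SE of 0.26. With total count scaling in place of TMM (trimmed mean of M values), 365 genes were higher and 201 lower, and the median of all genes tested shifted from 0.00 to 0.16 log2 units. The count was 299 with age as a covariate, 274 without the 3 libraries rich in Rn45s and 254 of the 1008 genes tested that have no opposite-strand exon. These are measurements on bulk liver, in which fewer cells of a type and less RNA per cell cannot be told apart.

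**Figure D1:**
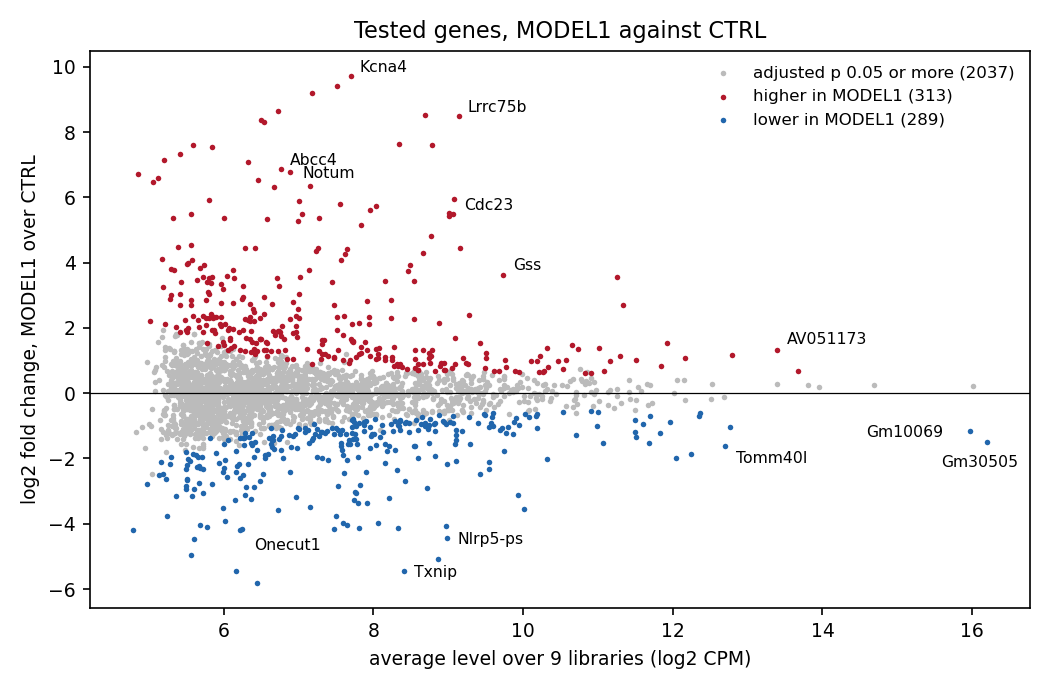
Each point is 1 of the 2639 tested genes, with its average level over the 9 libraries in log2 CPM on the x axis and its fitted log2 fold change, MODEL1 over CTRL, on the y axis. Red points are the 313 genes called higher and blue points the 289 called lower; the 2 most abundant symbols, Gm30505 and Gm10069, were both lower.

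The injected genes had too few reads for the test. Nfe2l2 (chromosome 2, 75675513 to 75704641, build mm10) held 7, 4 and 4 counts in CTRL replicates 1 to 3 and 8, 14 and 3 in MODEL1, a ratio of scaled counts of 1.41, interval 0.716 to 2.88 (exact 95% interval, counting error only; exact two-sided permutation p over samples = 0.6), which was 0.873 without MODEL1 replicate 2. Ctnnb1 (chromosome 9, 120929216 to 120960507; opposite-strand exon of Ulk4) held 2, 0 and 6 in CTRL and 3, 10 and 10 in MODEL1, a ratio of 2.44, interval 1.05 to 6.30 (exact permutation p = 0.2), which was 6.38 without CTRL replicate 3. The groups overlapped for both genes. Keap1, with an opposite-strand exon of Gm16754, held 1, 0 and 1 counts in CTRL and 4, 2 and 3 in MODEL1 (exact permutation p = 0.1, the smallest that 3 against 3 allows), and Cul3 held 1, 0 and 2 and 2, 4 and 2 (exact permutation p = 0.3). A table of mouse symbols cannot separate plasmid from endogenous reads, so these counts do not check the labels.

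NRF2 targets were the group with the most rises. Of 59 listed, 21 could be tested and 16 were higher and 0 lower in MODEL1, with a median log2 fold change of 2.43 against 0.00 over all genes tested. Because high counts in MODEL1 alone were enough to pass the filter, the 21 are not a fair sample of the 59. All 16 had every MODEL1 library above every CTRL library, as did 18.5% of all genes tested. The count was 12 with age as a covariate, 15 without the libraries rich in Rn45s and 14 to 15 when 1 library was left out. The calls lost with age as a covariate were Txnrd1 (log2 fold change 2.85, adjusted p = 0.0866), Ephx1 (2.63, 0.0754), Gsta3 (1.52, 0.343) and Gsr (2.25, 0.341). Of these, Gsta3 had a smaller fold change than without age (1.94) and the other 3 did not, and the median of the 21 was 2.85. Every call given below as lost under another setting kept its direction there.

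Among glutathione and thioredoxin genes all 6 of those tested were higher, against 11.9% of all genes tested. Slc7a11, the cystine importer that feeds glutathione synthesis (chromosome 3, 49892526 to 50443614), was at 0, 29.1 and 8.38 CPM in CTRL replicates 1 to 3 and at 148, 127.5 and 151 CPM in MODEL1. Gclc, the catalytic subunit of the rate-limiting enzyme of glutathione synthesis (chromosome 9, 77754535 to 77794485), was at 64.6, 68.0 and 117 CPM in CTRL and 417, 391 and 279.7 CPM in MODEL1. Gss, glutathione synthetase, which adds the last residue (chromosome 2, 155563181 to 155592810), was at 133, 63.1 and 138 CPM and 1362, 1338 and 1512 CPM. Slc7a11, Gclc and Gss were thus each higher in every MODEL1 library than in any CTRL library. The log2 fold changes were 3.54 ± 0.62 (SE; adjusted p = 0.000173) for Slc7a11, 2.11 ± 0.30 (1.69e-05) for Gclc and 3.63 ± 0.26 (7.11e-10) for Gss, whose exons overlap Acss2 on the opposite strand. Acss2 itself held 13 counts in CTRL and 31 in MODEL1.

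The reducing side of the system moved the same way. Srxn1, sulfiredoxin, which repairs oxidised peroxiredoxins, held 1, 0 and 0 counts in CTRL and 21, 24 and 25 in MODEL1, a ratio of 59.3, interval 10.3 to 2375 (adjusted p = 5.02e-05). Txnrd1, thioredoxin reductase, was at 24.2, 9.71 and 8.38 CPM in CTRL and 53.1, 106 and 69.1 CPM in MODEL1 (2.36 ± 0.62 log2 units, adjusted p = 0.00721). Gsr, glutathione reductase, was at 4.04, 19.4 and 8.38 CPM in CTRL and 49.3, 55.2 and 44.0 CPM in MODEL1 (2.21 ± 0.76, adjusted p = 0.0376). For none of these did the groups overlap. The Gsr call was the weakest of the 16: its adjusted p was 0.157 with CTRL replicate 1 left out, 0.106 with CTRL replicate 3 left out, 0.0687 with MODEL1 replicate 1 left out, 0.0854 with MODEL1 replicate 2 left out and 0.0755 with MODEL1 replicate 3 left out. Tkt, transketolase, the pentose phosphate enzyme that recycles sugars on the path to NADPH, was at 0, 9.71 and 8.38 CPM in CTRL and 64.5, 72.2 and 62.85 CPM in MODEL1 (3.40 ± 0.68 log2 units, adjusted p = 0.000685). It was the called gene among the 3 tested of 11 pentose phosphate and NADPH genes, and 11.9% of all genes tested were higher. Low in CTRL, Tkt passed the filter through the model libraries and could enter as a rise alone. G6pdx, the entry enzyme of the same pathway, had a log2 fold change of 0.01 ± 0.25 with overlapping libraries, and has an opposite-strand exon of Ikbkg.

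Of 8 tested conjugation and phase I/II genes 7 were higher (11.9% of all genes tested were), 3 of them neighbouring glutathione transferases. Gstm3, Gstm1 and Gstm4 are in that order neighbours among the tested genes of chromosome 3 between 107963696 and 108044894. Gstm1 (chromosome 3, 108012255 to 108017973) was the most abundant of the 3 in MODEL1, at 16.15, 53.4 and 117 CPM in CTRL and 519.8, 913.5 and 594 CPM in MODEL1 (3.43 ± 0.41 log2 units, adjusted p = 1.56e-06). Gstm3 was at 12.1, 9.71 and 0 CPM in CTRL and 102.5, 242 and 157 CPM in MODEL1 (4.43 ± 0.63, adjusted p = 1.53e-05). Gstm4 held 0, 0 and 2 counts in CTRL and 86, 64 and 75 in MODEL1 (ratio 95.3, interval 26.1 to 792). The 3 genes are close paralogs and reads can be shared among them; the value of each is therefore uncertain. Ugdh, UDP-glucose dehydrogenase, which makes the sugar donor for glucuronidation, held 0, 2 and 0 counts in CTRL and 21, 25 and 17 in MODEL1 (ratio 26.7, interval 7.09 to 225). Ephx1, microsomal epoxide hydrolase, was at 12.1, 19.4 and 16.8 CPM in CTRL and 56.9, 144.5 and 66.0 CPM in MODEL1 (2.43 ± 0.57, adjusted p = 0.00278). Gsta3, an alpha-class glutathione transferase, was at 16.15, 9.71 and 37.7 CPM in CTRL and 45.5, 140.2 and 69.1 CPM in MODEL1 (1.94 ± 0.60, adjusted p = 0.0208). Its call rested on single libraries, with an adjusted p of 0.0755 with CTRL replicate 1 left out, 0.0749 with CTRL replicate 2 left out and 0.149 with MODEL1 replicate 2 left out. Mgst1, a membrane-bound glutathione transferase, did not pass (0.52 ± 0.61, adjusted p = 0.603), and its libraries overlapped.

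Efflux and iron storage were represented by few genes. Abcc4, an ATP-driven exporter of conjugates (chromosome 14, 118482692 to 118706219), held 0, 0 and 1 counts in CTRL and 51, 76 and 54 in MODEL1 (ratio 153, interval 27.2 to 6089, adjusted p = 1.35e-07), while Abcc2, the canalicular exporter, was at 48.5, 34.0 and 37.7 CPM and 41.7, 97.7 and 88.0 CPM and did not pass (adjusted p = 0.198). Fth1, the ferritin heavy chain, was at 16.15, 34.0 and 16.8 CPM in CTRL and 129, 408 and 261 CPM in MODEL1 (3.57 ± 0.47, adjusted p = 5.36e-06). Best1 lies 76 bp from it on the opposite strand and did not pass. Ftl1, the ferritin light chain, was at 76.7, 116.5 and 75.5 CPM in CTRL and 186, 336 and 245 CPM in MODEL1 (1.51 ± 0.33, adjusted p = 0.00137; opposite-strand exon of Gm10252). Both ferritin chains were thus higher in each MODEL1 library, and both have many pseudogenes that can share reads. Slc48a1, a haem transporter with an opposite-strand exon of Hdac7, did not pass (0.19 ± 0.50). Of 10 regulators and proteostasis genes 2 were tested and neither passed: Sqstm1, the autophagy receptor p62 that binds KEAP1 (1.20 ± 0.65, adjusted p = 0.205; opposite-strand exon of 3010026O09Rik), and Maff, a small MAF partner of NRF2 (-0.06 ± 0.60).

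**Figure D2:**
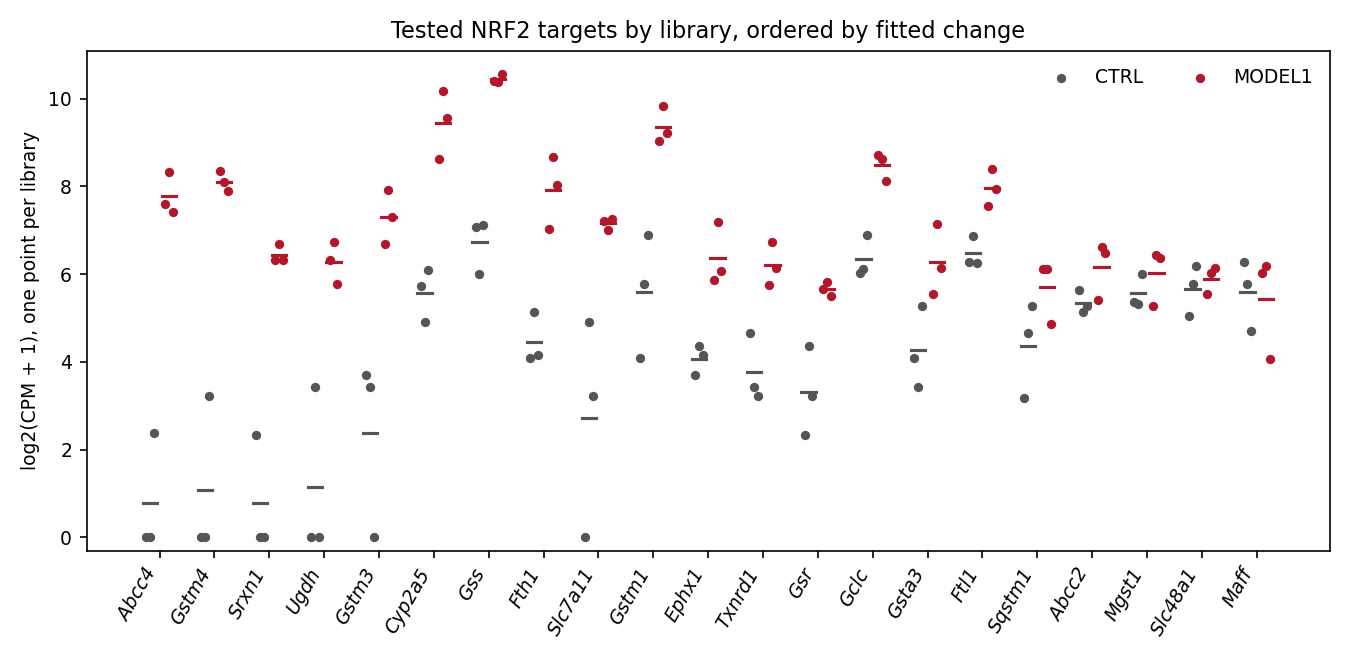
CPM of the 21 tested NRF2 targets on a log2(CPM + 1) axis, 1 point per library and a bar at the mean of 3; grey is CTRL and red MODEL1. From Abcc4 to Ftl1, the 16 called genes, every red point lies above every grey point of the same gene, and the groups overlap in the last 5.

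The promoters of these genes were searched for the core of the antioxidant response element, spelled TGACNNNGC, on both strands of the 250 bases before and 50 after each start in RefSeq (build GRCm38.p6). Promoter entries were found for 14 of the 16 called targets, and 5 of the 14 (35.7%) held the core: Srxn1, Txnrd1, Gsta3, Ugdh and Abcc4. The core stood in 32% of the 50 listed targets with an entry, in 16.1% of tested genes, in 12.4% of genes called higher and in 12.1% of those called lower, and in 12.4% of all 32851 promoters. The stretches around the matches upstream of the start follow, because they show which of the risen genes carry these letters next to their start. Each is written 5′ to 3′ on the strand of the gene with the match in capitals, as the core or, for a match on the other strand, its reverse complement.
Txnrd1 (chr10:82859064-82859142, plus strand): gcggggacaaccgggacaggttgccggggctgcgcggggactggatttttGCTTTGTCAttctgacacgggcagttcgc
Gsta3 (chr1:21240414-21240492, plus strand): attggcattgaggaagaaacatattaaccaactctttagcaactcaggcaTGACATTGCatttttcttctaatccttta
Ugdh (chr5:65435908-65436024, minus strand): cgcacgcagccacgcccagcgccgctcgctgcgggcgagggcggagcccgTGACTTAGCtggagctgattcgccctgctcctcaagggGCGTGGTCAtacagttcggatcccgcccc
Abcc4, first start (chr14:118706220-118706294, minus strand): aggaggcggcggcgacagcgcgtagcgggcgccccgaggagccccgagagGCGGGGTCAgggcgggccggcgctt
Abcc4, second start (chr14:118676932-118677004, minus strand): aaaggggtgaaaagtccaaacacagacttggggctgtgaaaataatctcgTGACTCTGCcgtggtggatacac
Ugdh held the core at 2 places and Abcc4 once at each of 2 annotated starts. With the shorter core TGANNNNGC, which contains the first one, 9 of the 14 (64.3%) had a match against 46.7% of tested genes. A match is a description of the letters and not of binding.

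Of 22 listed pericentral genes, 10 were tested and 5 were higher (11.9% of all genes tested were) and 0 lower, with a median log2 fold change of 2.41. Glul, Slc1a2 and Gulo had a CTRL library at 0, and all 5 called genes passed the filter through the model libraries. Because high counts in the models alone were enough to pass, the 10 are not a fair sample of the 22. Glul, glutamine synthetase, which marks the last rows of hepatocytes around the central vein (chromosome 1, 153899944 to 153909723), was at 8.08, 0 and 50.3 CPM in CTRL replicates 1 to 3 and 266, 382 and 195 CPM in MODEL1 (3.77 ± 0.56, adjusted p = 2.69e-05; opposite-strand exon of Teddm2). Slc1a2, the glutamate importer of the same cells (chromosome 2, 102658659 to 102790784), was at 8.08, 0 and 8.38 CPM in CTRL and 15.2, 106 and 75.4 CPM in MODEL1 (3.40 ± 0.83, adjusted p = 0.00416; opposite-strand exon of Gm13872). Both genes were higher in all MODEL1 libraries than in any CTRL library, with MODEL1 replicate 1 the lowest of the 3 for Slc1a2. Cyp2a5, an enzyme that is also an NRF2 target (chromosome 7, 26835305 to 26843548), was at 52.5, 29.1 and 67.1 CPM in CTRL and 395, 1160 and 751 CPM in MODEL1 (3.92 ± 0.40, adjusted p = 1.38e-07). Cyp1a2, a xenobiotic-metabolising P450, was at 24.2, 9.71 and 50.3 CPM and 159, 344 and 217 CPM (3.04 ± 0.46, adjusted p = 3.22e-05), and Gulo, the last enzyme of vitamin C synthesis, at 0, 9.71 and 8.38 CPM and 34.15, 51.0 and 66.0 CPM (3.02 ± 0.79, adjusted p = 0.00727). In these 3 genes MODEL1 replicate 1 was again the lowest of its group, and the groups did not overlap.

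The other 5 tested pericentral genes did not pass. Rgn, regucalcin, was near the threshold (1.80 ± 0.65, adjusted p = 0.0514), with every MODEL1 library above every CTRL library. Cyp2e1, the ethanol-metabolising P450, was at 189.8, 199 and 259.9 CPM in CTRL and 129, 339.9 and 201 CPM in MODEL1 (0.04 ± 0.33), and Cyp7a1, the rate-limiting enzyme of bile acid synthesis, ranged from 15.2 to 208 CPM within MODEL1. With age as a covariate 3 of the 10 were called, Slc1a2 (3.0 log2 units, adjusted p = 0.165) and Gulo (2.03, 0.327) being lost, and without the libraries rich in Rn45s Gulo did not pass (2.43, 0.165).

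Of 17 Wnt feedback genes and beta-catenin targets, 3 were tested and 1 was higher, against 11.9% of all genes tested. Notum, a secreted enzyme that inactivates Wnt proteins, held 1, 0 and 0 counts in CTRL and 63, 73 and 31 in MODEL1 (ratio 141.5, interval 25.05 to 5621, adjusted p = 8.41e-07). With so few counts in CTRL, Notum passed the filter through the model libraries and could enter as a rise alone. Every MODEL1 library was high, and Notumos and Myadml2os lie on the opposite strand of Notum. Tcf7, a partner of beta-catenin (0.11 ± 0.64), and Ccnd1, cyclin D1 (-0.14 ± 0.33; opposite-strand exon of Oraov1), had overlapping libraries. The TCF/LEF motif CTTTGAT was searched in the same windows and stood in 3.73% of all promoters. Among the 4 called pericentral genes with a promoter entry, Slc1a2 had it, at a start inside the annotated gene, shown here in capitals as the reverse complement.
Slc1a2 (chr2:102706188-102706257, plus strand): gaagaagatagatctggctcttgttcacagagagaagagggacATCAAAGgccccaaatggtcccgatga

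Genes of the portal side fell where they changed. Of 22 listed, 5 were tested and 3 were lower (11% of all genes tested were) and 0 higher, with a median log2 fold change of -2.45. High counts in a single group were enough to pass the filter, so the 5 are not a fair sample of the 22. The 3 called genes could not have passed it through the MODEL1 libraries alone. Pck1, the gluconeogenic enzyme (chromosome 2, 173153048 to 173159273), was at 189.8, 97.1 and 201 CPM in CTRL and 0, 12.75 and 12.6 CPM in MODEL1. Cps1, which makes the carbamoyl phosphate of the urea cycle (chromosome 1, 67123026 to 67231259), was at 137, 87.4 and 163.5 CPM in CTRL and 0, 34.0 and 18.9 CPM in MODEL1. Pigr, which carries IgA into bile (chromosome 1, 130826684 to 130852249), was at 509, 238 and 243 CPM in CTRL and 0, 80.7 and 97.4 CPM in MODEL1. All 3 had 0 counts in MODEL1 replicate 1, and the other MODEL1 libraries also lay below every CTRL library. The log2 fold changes were -4.18 ± 0.68 (adjusted p = 8.27e-05), -2.88 ± 0.57 (0.000669) and -2.45 ± 0.54 (0.00169) in that order. Pigr did not pass in DESeq2 (adjusted p = 0.0648). Without the libraries rich in Rn45s, which include MODEL1 replicate 1, Pck1 was the 1 gene of the 3 still called, with an adjusted p of 0.0962 for Cps1 (-1.88 log2 units) and 0.0631 for Pigr (-1.57). Arg1, the last enzyme of the urea cycle (-0.87 ± 0.53, adjusted p = 0.265), and Gls2, liver glutaminase (-0.61 ± 0.40, adjusted p = 0.299; opposite-strand exon of Spryd4), did not pass.

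**Figure D3:**
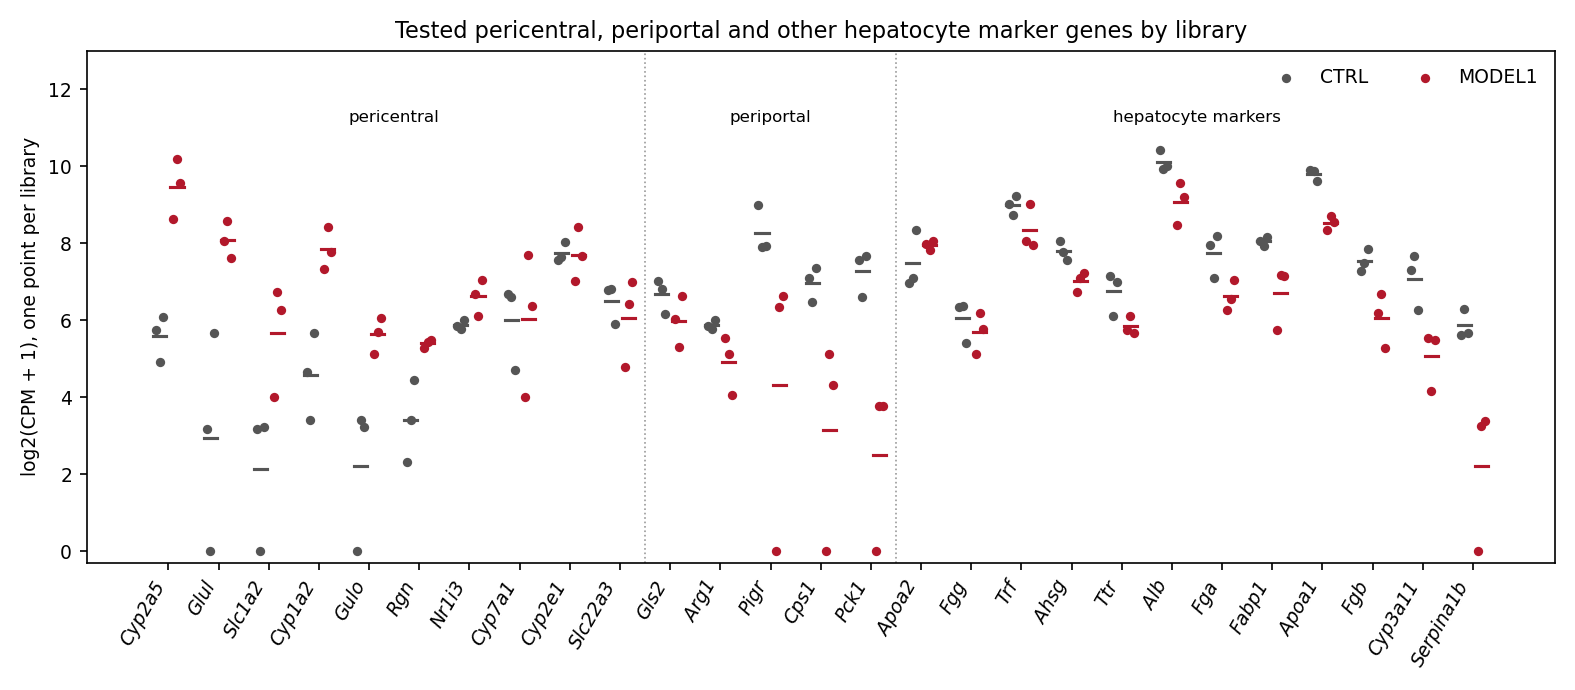
CPM of the 10 tested pericentral genes, the 5 tested periportal genes and 12 further tested hepatocyte markers, on a log2(CPM + 1) axis with 1 point per library and a bar at the mean of 3 (grey CTRL, red MODEL1). Cyp2a5 to Gulo, on the left, have all red points above the grey, and Pigr, Cps1 and Pck1 all below, with MODEL1 replicate 1 at 0.

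Secreted proteins and markers of the hepatocyte were lower in MODEL1 where they changed, with a pair of exceptions. Of 19 hepatocyte markers 15 were tested and 8 were lower (11% of all genes tested were) and 0 higher, with a median log2 fold change of -0.99. Alb, albumin (chromosome 5, 90460897 to 90476602), was at 1361, 966 and 1035 CPM in CTRL and 357, 752 and 585 CPM in MODEL1 (-0.99 ± 0.24, adjusted p = 0.00406). Apoa1, the main protein of HDL (chromosome 9, 46228580 to 46230466), was at 965, 947 and 788 CPM and 326, 416 and 374 CPM (-1.27 ± 0.22, adjusted p = 0.000135). Fabp1, the liver fatty acid carrier, was at 266.5, 243 and 285 CPM and 53.1, 144.5 and 141 CPM (-1.22 ± 0.35, adjusted p = 0.0127, but 0.0676 with MODEL1 replicate 1 left out). MODEL1 replicate 1 had the lowest level of each of these, and the groups did not overlap. Serpina1b, an alpha-1-antitrypsin gene of a near-identical family, was at 48.5, 77.7 and 50.3 CPM and 0, 8.50 and 9.43 CPM (-3.16 ± 0.73, adjusted p = 0.00263), and Mup3, a major urinary protein, at 174, 116.5 and 155 CPM and 19.0, 12.75 and 44.0 CPM (-2.48 ± 0.45, adjusted p = 0.000273). The number of markers lower was 3 with age as a covariate. Without the libraries rich in Rn45s edgeR called 0 of the 15, 5 had an unadjusted p under 0.05, and the median was -0.58. In that fit, which keeps 1 MODEL1 library, the log2 fold changes were -0.41 for Alb (adjusted p = 0.475), -1.06 for Apoa1 (0.0612) and -2.83 for Serpina1b (0.112). DESeq2 called 8 on all libraries.

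Other members of the same lists rose or did not pass. Apob, the scaffold of VLDL (chromosome 12, 7977648 to 8016835), was at 399.8, 514.5 and 486 CPM in CTRL and 789, 990.0 and 848.5 CPM in MODEL1 (0.91 ± 0.22, adjusted p = 0.00338), without overlap; without the libraries rich in Rn45s its log2 fold change was 0.98 and its adjusted p 0.0574. Slco1b2, a bile acid and drug uptake transporter, was also higher (1.68 ± 0.54, adjusted p = 0.0258), but its adjusted p was 0.12 with CTRL replicate 1 left out, 0.0955 with CTRL replicate 2 left out, 0.0705 with MODEL1 replicate 2 left out and 0.0693 with MODEL1 replicate 3 left out. Apoe, the most abundant of the secreted genes, was at 3335, 3602 and 3949 CPM and 2098, 4155 and 2684 CPM and overlapped between the groups (-0.29 ± 0.21). Apoa2 (0.33 ± 0.32), transferrin (Trf, -0.59 ± 0.29) and transthyretin (Ttr, -0.98 ± 0.39) overlapped too. The secreted and core hepatocyte list as a whole had 22 tested members of 28, 2 higher and 7 lower, and a median of -0.63. Over all genes tested 11.9% were higher and 11% lower.

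Of 32 coagulation and complement genes 12 were tested, 1 higher and 2 lower, a share of called genes near the 22.8% of all genes tested. The fibrinogen chains Fga (-1.15 ± 0.33, adjusted p = 0.0143) and Fgb (-1.43 ± 0.37, adjusted p = 0.0065) were lower, while Fgg, the gamma chain, did not pass (-0.36 ± 0.45; opposite-strand exon of Gm30097). C3, the central complement protein, was at 638, 602 and 625 CPM in CTRL and 732, 1504 and 770.0 CPM in MODEL1 (0.68 ± 0.24, adjusted p = 0.0433), with MODEL1 replicate 2 the highest. For Fga the adjusted p was 0.074 with CTRL replicate 3 left out and 0.0632 with MODEL1 replicate 1 left out, for Fgb 0.0535 with MODEL1 replicate 3 left out, and for C3 0.0819 with CTRL replicate 1 left out, 0.0727 with CTRL replicate 2 left out, 0.0781 with CTRL replicate 3 left out and 0.384 with MODEL1 replicate 2 left out. Of 4 tested acute phase genes 3 were lower, against 11% of all genes tested. Hamp, hepcidin, the hormone that closes the iron exporter ferroportin (chromosome 7, 30942368 to 30944032), was at 96.9, 72.8 and 75.5 CPM in CTRL and 0, 25.5 and 3.14 CPM in MODEL1 (-3.15 ± 0.74, adjusted p = 0.0031, but 0.337 at -1.52 without the libraries rich in Rn45s and 0.0526 at -3.19 with age in the model). Saa4, a constitutive serum amyloid A, fell by 1.22 ± 0.31 log2 units (adjusted p = 0.00526), and Itih4, an inter-alpha-trypsin inhibitor heavy chain, by 1.56 ± 0.46 (adjusted p = 0.0153, but 0.0748 with CTRL replicate 3 left out, 0.0612 with MODEL1 replicate 1 left out and 0.0578 with MODEL1 replicate 3 left out). Hp, haptoglobin, did not pass (-0.30 ± 0.57).

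A run of tested genes on chromosome 7 between 26173411 and 26843548 was higher: Cyp2b9, Vmn1r184, Cyp2a4, Cyp2g1 and Cyp2a5, 5 in a row. The row skips genes with too few counts to be tested. None of the 5 could have passed the filter through the CTRL libraries alone, so the row favours rises. Cyp2b9, a P450 that male mouse liver normally keeps low, held 0 counts in each CTRL library and 16, 30 and 18 in MODEL1, at least 18.1-fold higher against 3 counts over the CTRL libraries together. Cyp2a4, another female-biased P450, held 1, 0 and 0 counts in CTRL and 31, 54 and 60 in MODEL1 (ratio 123, interval 21.7 to 4885; opposite-strand exon of Gm42375). These were the 2 tested of 20 sex-biased genes. With 0 and 1 counts in CTRL they could pass the filter through the model libraries alone, and 10 of the 20 held 0 counts in both groups. Cyp2g1, known from olfactory mucosa, was at 8.08, 9.71 and 4.19 CPM and 72.1, 93.5 and 104 CPM (3.55 ± 0.63, adjusted p = 0.00019). Vmn1r184, a vomeronasal receptor gene between them (chromosome 7, 26260334 to 26270619), held 0 counts in CTRL and 24, 26 and 29 in MODEL1, at least 22.3-fold higher. No CTRL library reached the MODEL1 level of any of the 5. The Cyp2 genes are close paralogs that can share reads. Over all P450 and flavin monooxygenase genes, 58 listed and 12 tested, 5 were higher and 1 lower, against 11.9% higher and 11% lower of all genes tested. The lower gene was Cyp3a11, the main drug-metabolising P450 of mouse liver (157.5, 204 and 75.5 CPM in CTRL and 45.5, 17.0 and 44.0 CPM in MODEL1; -1.99 ± 0.59, adjusted p = 0.0161, but 0.0618 with CTRL replicate 2 left out and 0.0853 with MODEL1 replicate 2 left out).

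Of 52 urea cycle and amino acid genes 15 were tested, 3 lower and 0 higher, against 22.8% of all genes tested called and 11% lower. Beside Cps1, Mat1a, which makes S-adenosylmethionine in the adult hepatocyte (chromosome 14, 41105035 to 41124412), was at 125, 102 and 134 CPM in CTRL and 7.59, 25.5 and 0 CPM in MODEL1 (-3.52 ± 0.71, adjusted p = 0.000728, but 0.14 at -2.19 without the libraries rich in Rn45s). Gpt2, a mitochondrial alanine aminotransferase, fell by 1.36 ± 0.48 log2 units (adjusted p = 0.0424, but 0.16 with CTRL replicate 2 left out, 0.051 with CTRL replicate 3 left out, 0.142 with MODEL1 replicate 1 left out, 0.0591 with MODEL1 replicate 2 left out and 0.0966 with MODEL1 replicate 3 left out). Of 8 bile acid genes tested, Slc27a5, which joins bile acids to coenzyme A (chromosome 7, 12988346 to 12998192), was at 521, 379 and 314 CPM in CTRL and 37.9, 29.7 and 22.0 CPM in MODEL1 (-3.75 ± 0.36, adjusted p = 4.63e-08), and the other 7 did not pass. Slc10a1, the sodium-dependent bile acid importer, was at 319, 272 and 310.2 CPM and 296, 251 and 295 CPM, with overlapping groups.

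Of 6 tested glucose genes 2 were lower, Pck1 and Txnip, and 0 higher, against 22.8% of all genes tested called and 11% lower. Txnip, the thioredoxin-interacting protein, which responds to glucose (chromosome 3, 96557957 to 96561883), was at 254, 2548 and 138 CPM in CTRL and 0, 38.2 and 28.3 CPM in MODEL1 (-5.43 ± 0.92, adjusted p = 0.000129), CTRL replicate 2 being far above the other CTRL libraries. Gm15441, which overlaps it on the opposite strand, was at 8565, 15340 and 4272 CPM and 1400, 2638 and 3737 CPM (-1.86 ± 0.34, adjusted p = 0.000266), again with CTRL replicate 2 highest. Neither passed with age as a covariate (adjusted p = 0.256 at -2.62 log2 units and 0.357 at -0.71). Of 8 tested fatty acid and triglyceride synthesis genes 2 were lower and 0 higher, against 22.8% of all genes tested called and 11% lower. Cidec, a lipid droplet protein (chromosome 6, 113424634 to 113435760), was at 299, 267 and 319 CPM in CTRL and 45.5, 153 and 69.1 CPM in MODEL1 (-1.74 ± 0.35, adjusted p = 0.000694, but 0.208 at -0.94 without the libraries rich in Rn45s). Fads1, a fatty acid desaturase, fell by 1.89 ± 0.65 log2 units (adjusted p = 0.0395, but 0.11 with CTRL replicate 1 left out, 0.136 with CTRL replicate 2 left out, 0.0707 with MODEL1 replicate 2 left out and 0.176 with MODEL1 replicate 3 left out).

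Of 10 tested hepatocyte transcription factors and nuclear receptors 3 were lower and 0 higher, against 22.8% of all genes tested called and 11% lower. Onecut1 (HNF6), a factor of hepatocyte and biliary development (chromosome 9, 74861921 to 74891781), was at 161.5, 116.5 and 79.65 CPM in CTRL and 7.59, 12.75 and 0 CPM in MODEL1 (-4.16 ± 0.77, adjusted p = 0.000334). The 3 MODEL1 libraries held 2, 3 and 0 counts of it, and its adjusted p was 0.112 at -2.89 log2 units without the libraries rich in Rn45s. Prox1 (-1.33 ± 0.45, adjusted p = 0.0362; opposite-strand exon of Prox1os) and Cebpb (-1.21 ± 0.43, adjusted p = 0.047; opposite-strand exon of Tmem189) were lower by less. The adjusted p of Prox1 was 0.122 with CTRL replicate 1 left out, 0.0871 with CTRL replicate 3 left out, 0.127 with MODEL1 replicate 1 left out and 0.0951 with MODEL1 replicate 3 left out. That of Cebpb was 0.262 with CTRL replicate 1 left out, 0.0724 with CTRL replicate 2 left out, 0.132 with MODEL1 replicate 1 left out and 0.142 with MODEL1 replicate 2 left out, and 0.0643 in DESeq2. Cebpa (-0.35 ± 0.27; opposite-strand exon of Gm45091) did not pass.

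**Figure D4:**
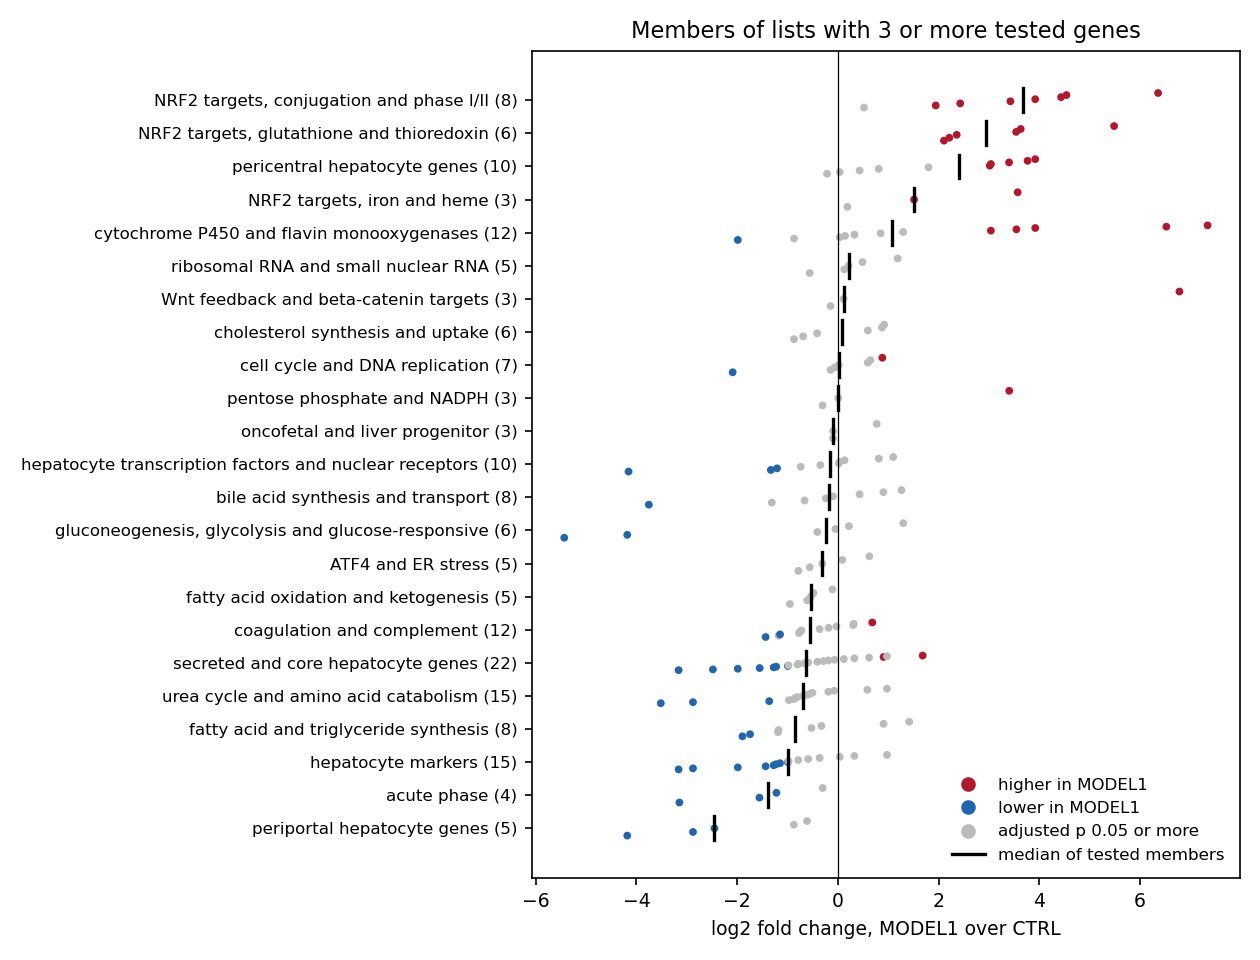
Log2 fold changes, MODEL1 over CTRL, of the tested members of the 23 lists with at least 3 tested genes (number tested in brackets), ordered by the median, drawn as a black bar. Red points are called higher, blue points called lower and grey points did not pass; the NRF2 and pericentral lists lie to the right of 0 and the periportal and acute phase lists to the left.

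Of 38 cell cycle and DNA replication genes 7 were tested, 1 higher and 1 lower, near the share called of all genes tested. Ccna2, cyclin A2 (chromosome 3, 36564865 to 36572150), was at 202, 165 and 201 CPM in CTRL and 277, 438 and 339 CPM in MODEL1 (0.88 ± 0.27, adjusted p = 0.0198, but 0.0557 with CTRL replicate 2 left out, 0.098 with MODEL1 replicate 2 left out and 0.051 with MODEL1 replicate 3 left out), and Tk1, thymidine kinase (chromosome 11, 117815526 to 117826092), was at 812, 1053 and 884.5 CPM and 212.5, 174 and 255 CPM (-2.09 ± 0.22, adjusted p = 2.66e-07). Symbols on the opposite strand of such genes were called too. Exosc9, an exosome subunit whose exons overlap Ccna2 (chromosome 3, 36552606 to 36565727), was at 8.08, 9.71 and 12.6 CPM in CTRL and 527, 319 and 698 CPM in MODEL1 (5.61 ± 0.43, adjusted p = 2.2e-09). Cdc23, a subunit of the anaphase-promoting complex that overlaps the mitotic kinesin Kif20a, was at 8.08, 38.8 and 29.3 CPM in CTRL and 1332, 854 and 1201 CPM in MODEL1 (5.49 ± 0.35, adjusted p = 2.56e-10). Kif20a had a log2 fold change of 0.59 ± 0.30. Afmid, which overlaps Tk1 (chromosome 11, 117825924 to 117839908), went the other way, at 258, 169.9 and 277 CPM and 15.2, 17.0 and 25.1 CPM (-3.57 ± 0.51, adjusted p = 1.65e-05). Over the 6 tested symbols opposite listed cell cycle genes, 3 were higher and 1 lower, with a median of 0.83. Over all genes tested 11.9% were higher and 11% lower.

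Opposite-strand symbols were among the large falls where the partner is a gene of amino acid breakdown. Plbd2, opposite Sds, serine dehydratase (chromosome 5, 120483282 to 120503625), was at 404, 437 and 259.9 CPM in CTRL and 49.3, 25.5 and 31.4 CPM in MODEL1 (-3.35 ± 0.38, adjusted p = 5.76e-07), while Sds held 28 and 23 counts. AW495222, opposite Dmgdh, dimethylglycine dehydrogenase (chromosome 13, 93706182 to 93719175), was at 6194, 7271 and 4980 CPM and 1662, 1500 and 1515 CPM (-1.98 ± 0.18, adjusted p = 2.96e-08). Spryd4, opposite Gls2, was at 56.5, 165 and 79.65 CPM and 0, 12.75 and 6.285 CPM (-3.91 ± 0.72, adjusted p = 0.000313). These 3 were the falls among 6 tested symbols opposite the urea cycle and amino acid genes, none of which was higher. Of all genes tested 11% were lower. Dlec1, opposite the peroxisomal thiolase Acaa1b, was at 642, 1005 and 71.3 CPM and 37.9, 38.2 and 84.85 CPM (-3.36 ± 0.66, adjusted p = 0.000527), with CTRL replicate 3, the older mouse, overlapping MODEL1 and an adjusted p of 0.951 at -0.17 log2 units with age as a covariate. Ctsb, cathepsin B, opposite Fdft1 of cholesterol synthesis, was higher (16.15, 24.3 and 12.6 CPM and 68.3, 97.7 and 66.0 CPM; 2.11 ± 0.53, adjusted p = 0.00515). Pitx3, opposite the elongase Elovl3, fell from 17 to 3 counts (ratio 0.1495, interval 0.0281 to 0.517; adjusted p = 0.03, but 0.0759 with CTRL replicate 1 left out, 0.0996 with CTRL replicate 3 left out, 0.101 with MODEL1 replicate 1 left out and 0.0966 with MODEL1 replicate 3 left out).

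Opposite-strand overlap was common among called and uncalled genes alike. Of 592 called genes placed on the genome 338 had an opposite-strand exon (57.1%), against 1254 of the 2008 placed genes that were not called. In 397 pairs of opposite-strand neighbours both members were tested. Both were called in 24 of them, 20 times in the same direction and 4 times in opposite directions, and in 115 pairs 1 member alone was called. Over all genes tested 22.8% were called. Whether neighbours were called together more often than other pairs of genes was not tested.

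**Figure D5:**
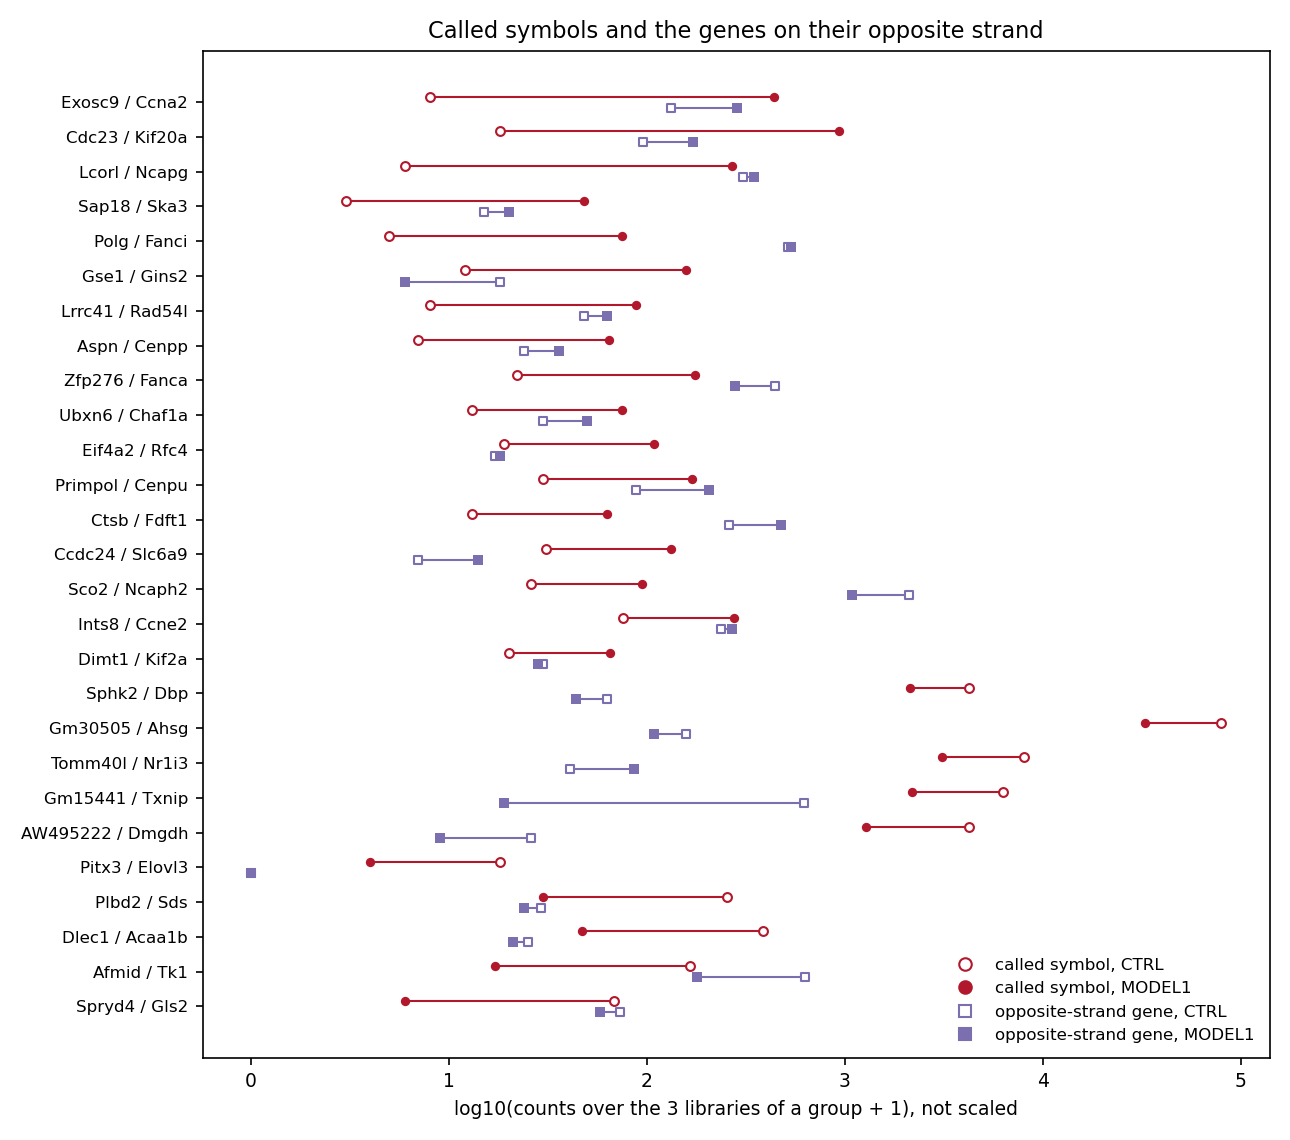
Summed counts, log10(counts + 1) and not scaled, of 27 called symbols (red circles) and of the gene on their opposite strand (purple squares) in CTRL (open) and MODEL1 (filled); the pairs are from the called symbols opposite a listed gene or opposite a gene of the DNA replication, repair and kinetochore families. Red lines are long in most pairs and purple lines short, Txnip and Tk1 having the longest purple lines.

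Of the 10 most abundant called symbols all but AV051173, which is not placed on the genome, had an opposite-strand exon. Gm30505, which overlaps Ahsg (fetuin-A, a secreted hepatocyte protein) on the opposite strand (chromosome 16, 22874983 to 22894386), held 9.77% to 10.8% of all counts in CTRL and 3.44% to 4.83% in MODEL1 (-1.50 ± 0.17, adjusted p = 1.03e-06). Ahsg itself held 156 counts in CTRL and 107 in MODEL1. Gm10069, which overlaps Gm8719 and Pzp (pregnancy zone protein), held 6.84% to 7.99% in CTRL and 3.76% to 3.77% in MODEL1 (-1.15 ± 0.175, adjusted p = 3.56e-05). Both symbols took a smaller share of every MODEL1 library than of any CTRL library. Also lower were Tomm40l, opposite Nr1i3 (the receptor CAR; -1.62 ± 0.21, adjusted p = 5.55e-06), Tardbp, opposite Masp2 (a complement protease; -1.05 ± 0.18, adjusted p = 0.00014), Cdc37l1, opposite Ak3 (-0.60 ± 0.17, adjusted p = 0.0114), and C330022C24Rik, opposite Urah (-0.68 ± 0.19, adjusted p = 0.00969). Higher were AV051173 (1.33 ± 0.20, adjusted p = 3.22e-05), Sla2, opposite 1110008F13Rik (1.16 ± 0.25, adjusted p = 0.00134), and Tcp1, opposite Acat3 (0.67 ± 0.18, adjusted p = 0.00738).

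Among markers of other cells few could be tested, and no list had more than 1 member called higher. Cd163 and Thy1, low in CTRL, passed the filter through the model libraries. Cd163, a scavenger receptor of macrophages (chromosome 6, 124304656 to 124330527), was at 20.2, 29.1 and 16.8 CPM in CTRL and 193.5, 187 and 132 CPM in MODEL1 (2.94 ± 0.43, adjusted p = 2.11e-05). Folr2, the other of the 2 tested of 21 Kupffer cell and macrophage markers, did not pass (0.22 ± 0.44; opposite-strand exon of Gm10602), and Adgre1, which encodes F4/80, was among 5 with 0 counts in the 6 libraries. The 21 together held 35 to 51 counts per CTRL library and 106 to 113 per MODEL1 library. Cd163 made up 33.2% of these counts, so the totals do not follow this gene alone. Most of the other members had too few counts to be tested. Thy1, known from T cells and other cells (chromosome 9, 44043384 to 44048579), held 0 counts in each CTRL library and 54, 40 and 33 in MODEL1, at least 35.9-fold higher. It made up 92% of the counts of the T and NK cell markers, which ran from 0 to 3 counts per CTRL library and from 35 to 57 per MODEL1 library, and 8 of the 15 in the table, Cd3d, Cd3g and Lck among them, were at 0. Clec9a, of cross-presenting dendritic cells (chromosome 6, 129408862 to 129424763), was at 72.7, 107 and 92.2 CPM in CTRL and 250.4, 268 and 317 CPM in MODEL1 (1.62 ± 0.31, adjusted p = 0.000452), and 9 bp separate it from Clec1a on the other strand. It held 81.1% of the counts of 11 dendritic cell markers, 24 to 31 per CTRL library and 73 to 119 per MODEL1 library, and the class II genes H2-Aa and H2-Eb1 were at 0. Without the libraries rich in Rn45s the adjusted p of Clec9a was 0.064 at 1.43 log2 units. Stellate cell and fibroblast markers ran from 54 to 62 counts in CTRL and from 72 to 112 in MODEL1. Tagln made up 78.9% of these counts and did not pass (0.51 ± 0.30; opposite-strand exon of Pcsk7), and 6 of the 22 markers, Lum and Pdgfrb among them, were at 0. Eng, endoglin of endothelium, fell by 0.95 ± 0.28 log2 units (adjusted p = 0.0164, but 0.0571 with CTRL replicate 2 left out, 0.0608 with MODEL1 replicate 1 left out and 0.0501 with MODEL1 replicate 2 left out; opposite-strand exon of Fpgs). The 20 endothelial markers held 121 to 130 counts per CTRL library and 91 to 111 in MODEL1. Eng alone made up 61.1% of these counts, with 256 over the CTRL libraries and 158 over MODEL1, so the totals mostly follow this gene. Neutrophil markers held 0 to 1 count per library, cholangiocyte markers 3 to 10, and the listed haemoglobin genes 0. The part of other cell types in the results above was not tested.

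In 12 lists with tested members no member was called. They cover 33 genes: cholesterol synthesis (6 tested), fatty acid oxidation (5), ATF4 and ER stress (5), ribosomal and small nuclear RNA (5), oncofetal genes (3), interferon response, heat shock and NRF2 regulators (2 each), and stellate, B cell, erythroid and pancreas markers (1 each). Of the 33, edgeR called 0 and gave 3 an unadjusted p under 0.05 (Fdft1, Irf7 and Malat1), and DESeq2 called 1. Afp, alpha-fetoprotein, was at 121, 92.2 and 163.5 CPM in CTRL and 98.7, 102 and 151 CPM in MODEL1, with overlapping groups. No p53 target, neutrophil or cholangiocyte marker had enough counts to be tested.

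Outside the lists, among named genes with an average of at least 2 log2 CPM and no overlap between the groups, the largest rises were in symbols at or near 0 in CTRL; provisional symbols (Gm and Rik names and the like) were set aside. Kcna4, a potassium channel, held 0 counts in CTRL and 106, 74 and 172 in MODEL1, at least 99.4-fold higher, Alpk3, a kinase of muscle, 0 and 49, 100 and 131 (at least 79.1-fold), and Ttc27 0 and 58, 46 and 60 (at least 46.3-fold). With 0 counts in CTRL these 3 genes passed the filter through the model libraries, so they could enter as rises alone. The same holds for Lrrc75b, Mrgpra3 and Slc22a12 below. Groups without overlap were a condition of the rule. Lrrc75b (chromosome 10, 75550123 to 75560330) held 1, 0 and 1 counts in CTRL and 422, 295 and 265 in MODEL1 (ratio 416, interval 115 to 3439); the glutathione-degrading enzyme Ggt1 lies 1274 bp away on the opposite strand. Mrgpra3, a sensory receptor gene, held 1, 0 and 0 and 126, 201 and 263 (ratio 499.8, interval 89.4 to 19770). Slc22a12, the urate transporter of the kidney (chromosome 19, 6535845 to 6543032), held 0 counts in CTRL and 38, 44 and 53 in MODEL1, at least 38.1-fold higher, and Nrxn2, the neurexin on its opposite strand, was higher as well, at 24.2, 19.4 and 50.3 CPM and 656, 769 and 685 CPM (4.45 ± 0.31, adjusted p = 6.72e-10). Both members of that pair thus rose.

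By the same rule Nlrp5-ps, Olfr541, D7Ertd143e, Gpr171, Mfhas1 and Crip3 were among the largest falls. Nlrp5-ps, a pseudogene (chromosome 7, 14530652 to 14622479), was at 892, 859 and 1165 CPM in CTRL and 30.4, 34.0 and 66.0 CPM in MODEL1 (-4.43 ± 0.30, adjusted p = 4.2e-10). D7Ertd143e, not placed on the genome, was at 2160, 718 and 872 CPM and 11.4, 38.2 and 56.6 CPM (-5.09 ± 0.51, adjusted p = 1.05e-07). Olfr541, an olfactory receptor gene, held 78, 27 and 60 counts in CTRL and 2, 1 and 0 in MODEL1 (ratio 0.0154, interval 0.00314 to 0.0458). That the groups did not overlap in these genes was a condition of the rule and not a result. Gpr171 held 34, 16 and 14 and 2, 0 and 0 (ratio 0.0265, interval 0.00314 to 0.0996), and Mfhas1, with an opposite-strand exon of Gm16793, 21, 27 and 15 and 0, 2 and 1 (ratio 0.0403, interval 0.00810 to 0.123). Crip3, 407 bp from the organic anion transporter Slc22a7 on the opposite strand, held 13, 13 and 11 and 0, 1 and 1 (ratio 0.0458, interval 0.00535 to 0.1775).

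MODEL1 was set against MODEL2 (19, 20 and 22 weeks old), which carries the same CTNNB1 change, in the same fit. Of 2639 genes 192 differed (7.28%), 90 higher in MODEL1 (3.41%) and 102 lower (3.87%). Of the 21 tested NRF2 targets 7 were higher in MODEL1 than in MODEL2 and 0 lower, with a median difference of 1.20 log2 units against -0.01 over all genes tested. Slc7a11 was higher by 2.31 ± 0.53 log2 units (adjusted p = 0.0104), Fth1 by 1.85 ± 0.39 (0.00567), Cyp2a5 by 1.74 ± 0.34 (0.00241), Abcc4 by 1.71 ± 0.40 (0.0104), Gstm3 by 1.59 ± 0.46 (0.0387), Gstm4 by 1.26 ± 0.35 (0.0347) and Ftl1 by 1.23 ± 0.32 (0.0218). Gss (0.50 ± 0.22, adjusted p = 0.186) and Gclc (0.45 ± 0.27, 0.375), of glutathione synthesis, did not pass. Of the 10 pericentral genes Cyp2a5, Cyp1a2 (1.42 ± 0.39, 0.032) and Glul (1.56 ± 0.45, 0.0387) were higher, and Cps1 was lower (-1.97 ± 0.60, 0.0477). Cd163 (1.53 ± 0.37, 0.0146) and Clec9a (1.79 ± 0.31, 0.00101) were higher too.

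By the same rule, list members included, 5 genes were taken at each end of the differences from MODEL2. Asb13 (chromosome 13, 3634032 to 3653822) was at 455, 799 and 701 CPM in MODEL1 and 76.7, 104 and 106 CPM in MODEL2 (2.77 ± 0.34, adjusted p = 2.12e-05). R3hdml was at 224, 374 and 204 CPM in MODEL1 and 11.5, 51.85 and 8.13 CPM in MODEL2 (3.49 ± 0.71, adjusted p = 0.0041), but its CTRL libraries, at 141, 19.4 and 436 CPM, spanned both. Gpr21 (2.87 ± 0.75), Pmch (2.67 ± 0.72; opposite-strand exon of Parpbp) and Rnase4 (2.61 ± 0.76) were also higher in MODEL1. Pitx3 was lower, at 0, 8.50 and 3.14 CPM in MODEL1 and 107, 216 and 122 CPM in MODEL2 (-5.15 ± 0.69, adjusted p = 5.04e-05). Onecut1 (-3.60 ± 0.79, 0.00719), Nlrp5-ps (-3.46 ± 0.30, 3.07e-07), Spryd4 (-3.40 ± 0.74, 0.00648) and H2-M10.6, a class I-like gene of a near-identical family (-4.07 ± 0.72, 0.00105), were lower as well. The number of genes called between the models was 101 with age as a covariate. It was 88 without MODEL1 replicate 2, 107 without MODEL1 replicate 3, and 79, 119 and 101 without MODEL2 replicates 1, 2 and 3.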

How the data were processed

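RNA sequencing libraries of liver from 9 male FVB mice were analysed, 3 each of CTRL, MODEL1 and MODEL2. The values deposited by the authors are read counts per gene symbol, 1 column per library. Build mm10 and the tools HISAT2 2.1.0, HTSeq 0.11.2 and Trimmomatic 0.38 are named in the submitters' processing notes; roles, annotation and strand setting are not given in the sources used here. Columns were matched to samples by their labels. Where labels do not say that libraries came from separate animals, p-values measure only the spread between these samples, which may be technical.

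Counts were scaled with TMM and tested in edgeR 4.0.16 (R 4.3.3, limma 3.58.1) with its quasi-likelihood test on all 9 libraries, 1 coefficient per group, after filterByExpr, with Benjamini-Hochberg adjustment over 2639 genes and a threshold of 0.05. Errors are SE of the log2 fold change (its size over the square root of F). CPM use TMM-scaled library sizes. A ratio of scaled counts with its exact 95% interval replaces the fold change where a group held 1 to 3 counts, and a bound of 3 counts over its libraries where it held 0. On genes simulated from these libraries the fit was tested with known changes. Totals of 219504 to 325177 counts limit the precision, and intervals cover counting error only. Alternatives were DESeq2 1.42.0, other scalings and filters, age as a covariate, a replicate block, and subsets of libraries and genes. Python 3.11.15 placed symbols by GENCODE M21 and searched RefSeq promoters.

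The comparison and the gene lists were chosen with earlier results of these data known. Genes were named as the injected genes with Keap1 and Cul3, up to 4 called members of each list by size of change, the 10 most abundant called symbols, the 8 largest rises and falls without overlap among symbols that are not provisional and average at least 2 log2 CPM, the 10 largest changes opposite a listed gene, and the 5 genes highest and lowest against MODEL2 under the same conditions. A few genes are not reported here. List members that did not pass, and the other genes of the closing section with Slc22a12 and Nrxn2, were named after their values were seen. The mitochondrial genome list had 0 of 15 genes in the table.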

Additional observations from a re-analysis of the deposited data

How the results depend on the processing

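Of the 131 genes checked singly, DESeq2 ended 2 calls, total count scaling 8, RLE scaling 0, age as a covariate 50 and leaving out the 3 libraries rich in Rn45s 48, the last of which leaves 1 MODEL1 and 2 CTRL libraries; the cause was not tested. R3hdml, not called, changed sign with age as a covariate (-0.97) and without CTRL replicate 2 (-0.12), and was 1.68 without CTRL replicate 3. Of the genes named here, the calls lost with age as a covariate were those of Txnrd1, Slc1a2, Pigr, Serpina1b, Cyp3a11, Slco1b2, Fgb, C3, Hamp, Itih4, Saa4, Cyp2g1, Gpt2, Txnip, Fads1, Prox1, Cebpb, Ccna2, Eng, Tcp1, Cdc37l1, C330022C24Rik, Gm15441, Crip3, Dlec1, Pitx3, Ctsb, Gpr21, Rnase4, Alb, Ephx1, Fabp1, Gsr, Gsta3, Gulo, Adh1, Ugt2b34, Ecm2, Omd, Ogn, Acsm5 and Dimt1. Those lost without the libraries rich in Rn45s were Cps1, Pigr, Serpina1b, Cyp3a11, Slco1b2, Fgb, Fga, Hamp, Itih4, Saa4, Mat1a, Gpt2, Fads1, Cidec, Onecut1, Prox1, Cebpb, Clec9a, Eng, Tcp1, Sla2, Cdc37l1, C330022C24Rik, Mfhas1, Crip3, Dlec1, Pitx3, Ctsb, Rnase4, Alb, Apoa1, Apob, Fabp1, Gsr, Gulo, Egfr, Aspn, Omd, Acsm1, Acsm5 and Dimt1. With age as a covariate 299 genes were called, 170 higher and 129 lower, with 3 pericentral genes higher and 3 hepatocyte markers lower. Without the libraries rich in Rn45s 274 were called, 162 higher and 112 lower, with 1 periportal gene and 0 hepatocyte markers lower. Among the genes with no opposite-strand exon 254 were called, 142 higher and 112 lower. With at least 20 counts in 3 libraries 3 pericentral genes were higher and 63.3% of called genes had an opposite-strand exon, and with no filter 50.8% had one. When 1 library was left out, 478 to 566 genes were called (260 to 294 higher, 218 to 274 lower), with 14 to 15 NRF2 targets and 5 to 6 pericentral genes higher, 3 periportal genes and 6 to 8 hepatocyte markers lower, a share with an opposite-strand exon of 55.3% to 57.8%, a ratio of Nfe2l2 of 0.873 to 2.04 (0.873 without MODEL1 replicate 2) and of Ctnnb1 of 1.71 to 6.38. Against MODEL2 the count was 101 with age as a covariate and 79 to 142 when 1 library was left out. CTRL and MODEL1 replicates of the same number did not deviate together (r = -0.06, -0.10 and -0.04 across genes), so they share only a number. A replicate block gave 543 calls, 541 of them among the 602, and 125 against MODEL2; it ended the calls of C3, Gpt2, Fads1, Prox1, Cebpb, Gsr and Dimt1. Of 24419 symbols 2639 could be tested and 9512 had no counts in any library; how many depth alone kept out was not tested.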

Other observations

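The genes here were chosen after their values were seen, so their values are a description. Slc40a1, ferroportin, the iron exporter that hepcidin closes (chromosome 1, 45908068 to 45926523), was at 12.1, 29.1 and 16.8 CPM in CTRL replicates 1 to 3 and 330.1, 425 and 374 CPM in MODEL1 (4.28 ± 0.39, edgeR adjusted p = 2.91e-08). Nadk, the kinase that makes NADP (chromosome 4, 155562378 to 155591001), was at 8.08, 19.4 and 12.6 CPM and 497, 234 and 160.3 CPM (4.45 ± 0.51, adjusted p = 7.81e-07). Cat, catalase, was at 416, 301 and 389.9 CPM and 645, 935 and 776 CPM (1.08 ± 0.22, adjusted p = 0.00087). In all 3 genes every MODEL1 library lay above every CTRL library. Ugt2b34, a glucuronosyltransferase, was also higher (3.57 ± 0.66), as were Adh1, alcohol dehydrogenase (2.21 ± 0.55; opposite-strand exon of Gm16559), and Aldh1a1, a retinaldehyde dehydrogenase (1.88 ± 0.54, adjusted p = 0.0137, but 0.0602 with CTRL replicate 3 left out and 0.108 with MODEL1 replicate 2 left out). Igf2r, the receptor that clears IGF2, was at 20.2, 0 and 33.5 CPM in CTRL and 334, 378 and 255 CPM in MODEL1 (4.07 ± 0.48, adjusted p = 1.25e-06). Igf1 was at 174, 112 and 231 CPM and 19.0, 21.2 and 18.9 CPM (-3.10 ± 0.46, adjusted p = 2.6e-05), and Egfr at 186, 136 and 134 CPM and 7.59, 25.5 and 34.6 CPM (-2.70 ± 0.50, adjusted p = 0.000339, but 0.0574 at -2.38 without the libraries rich in Rn45s). Neither group reached the other in any of the 3.

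Neighbouring tested genes moved together at several places, genes with too few counts being skipped. Of those named here, Aspn and Acsm1 held 6 and 18 counts over the CTRL libraries. They could not have passed the filter through these libraries alone. On chromosome 13 between 49504810 and 49624501, 4 tested genes of extracellular matrix proteins in a row were higher: Ecm2 (3.09 ± 0.64), Aspn (3.04 ± 0.69; opposite-strand exon of Cenpp), Omd (3.79 ± 0.81) and Ogn (2.25 ± 0.58). On chromosome 7, Hamp and its neighbours Usf2 (674, 626 and 771 CPM in CTRL and 53.1, 34.0 and 31.4 CPM in MODEL1; -4.12 ± 0.33, adjusted p = 4.13e-09) and Lsr, a lipoprotein receptor (-2.17 ± 0.29, adjusted p = 7.04e-06), were lower; Gm17077 overlaps the exons of both on the opposite strand. Further along it, the medium-chain acyl-CoA synthetase genes Acsm1 (2.57 ± 0.51) and Acsm3 (1.66 ± 0.29; opposite-strand exon of Eri2) were higher, with Acsm5 beside them (0.78 ± 0.25, adjusted p = 0.0245, but 0.151 with CTRL replicate 1 left out, 0.069 with MODEL1 replicate 2 left out and 0.0966 with MODEL1 replicate 3 left out; opposite-strand exon of Pdilt).

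Of 21 tested symbols that lie opposite genes of chromosome structure, replication and repair, 14 were higher in MODEL1, 0 were lower and 7 did not pass. Over all genes tested 11.9% were higher. Of 25 tested genes of these families themselves 4 were higher and 3 lower. Some of the 14 calls were lost with age as a covariate, that of Dimt1, opposite Kif2a, among them. Of the 14, 4 are described here. Lcorl, Gse1, Polg and Zfp276 held 5, 11, 4 and 21 counts over the CTRL libraries. All of them passed the filter through the model libraries, so that they could enter as rises alone. Lcorl, opposite the condensin subunit Ncapg, was at 4.04, 4.85 and 12.6 CPM in CTRL and 296, 259 and 405 CPM in MODEL1 (5.38 ± 0.46, adjusted p = 1.21e-08). Gse1, opposite Gins2 of the replicative helicase, was at 12.1, 9.71 and 25.15 CPM and 182, 178 and 207 CPM (3.54 ± 0.46, adjusted p = 4.38e-06). Polg, opposite Fanci, was at 4.04, 4.85 and 8.38 CPM and 72.1, 85.0 and 110.0 CPM (3.84 ± 0.67, adjusted p = 0.00018), and Zfp276, opposite Fanca, at 24.2, 29.1 and 37.7 CPM and 197, 204 and 233 CPM (2.78 ± 0.37, adjusted p = 5.55e-06). Each of these was higher in all 3 MODEL1 libraries. Which strand these reads came from is not known.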
